A study of Rattus norvegicus with 138 samples.

Results

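The matrix metalloproteinases examined were 10 genes, Mmp2, Mmp3, Mmp8, Mmp9, Mmp10, Mmp12, Mmp13, Mmp14, Mmp19 and Mmp23, each taken by its symbol from a summary table of 16181 rat gene symbols. The table held 21 symbols of the Mmp family in all, and the other 11 are given as counts with examples. RNA was sequenced from the tibialis anterior (TA), the muscle at the front of the shin, of inbred male Lewis rats about 4 months old. The operation was a volumetric muscle loss (VML) injury, a full-thickness piece from the middle of the TA of one leg removed with a 6 mm punch. Injured muscles were left without repair or were repaired with a minced muscle graft, the excised tissue cut up and returned to the same defect. Some rats of both arms were also labelled as running.

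After libraries that stood apart were removed (below), the groups without repair held 3, 8, 4 and 4 injured muscles at 3, 7, 14 and 28 days post injury (DPI), with 2, 4, 2 and 2 contralateral muscles from the unoperated leg. The graft groups held 7, 8, 4 and 4 injured and 2, 6, 2 and 2 contralateral muscles at the same days. Running rats without repair gave 8, 4, 4 and 2 injured muscles and running rats with a graft gave 6, 4, 4 and 2, with 2 contralateral muscles in each arm at 3, 7 and 14 DPI. The control muscles, labelled sham and day 0, numbered 4 and came from both legs of 2 rats. Those rats carry numbers of another series than the operated rats, so the series and the injury cannot be told apart in any comparison with control. The injury removes tissue as well as damaging it, the graft adds tissue from the same animal, and several groups hold 2 muscles, which limits each as a model.

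Values were TPM, transcript abundances scaled to a fixed total per library, which are adjusted for transcript length and allow levels of different genes to be compared, but keep no record of sequencing depth, so that the depth of each library is unknown. Of 138 libraries, 13 had only 901 to 5712 symbols above 1 TPM and were left out, against 7866 to 10948 in those kept; 5 of the 13 came from rats not running, all at 7 DPI. In 9 other libraries the labels conflict, and they were put in no group. In 8 the title and the other labels name opposite muscles, and in 1 the day differs from that of the same rat's other libraries. The tissue label was checked against muscle fiber genes (Acta1, Ckm and 6 others), whose summed level was 159704 TPM in control muscle and 31758, 53106, 115502 and 115568 TPM in injured muscle without repair at 3, 7, 14 and 28 DPI. Because whole muscle was sequenced, a change in the number of cells of a type and a change in RNA per cell cannot be told apart.

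Matrix metalloproteinases are zinc endopeptidases made as inactive proenzymes, which cut collagens, elastin, laminins and other matrix proteins once their prodomain is removed. Tissue inhibitors of metalloproteinases (TIMPs) bind the active site and hold activity in check, so transcript levels do not measure enzyme activity. In muscle they are known for clearing basement membrane and interstitial collagen during repair. Transcription of several secreted members is classically driven by AP-1, a dimer of Fos and Jun family proteins induced by inflammatory cytokines.

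The rat genes Mmp13, Mmp12, Mmp3, Mmp10 and Mmp8 lie in one cluster on chromosome 8, together with Mmp1b and Mmp1 (order Mmp13, Mmp12, Mmp1b, Mmp3, Mmp1, Mmp10, Mmp8 in RefSeq, assembly GRCr8). Only genes from the first to the last of these members were listed, so the cluster may extend further. Their promoters are shown because these 5 members were at or near 0 TPM in control muscle and include those with the widest ranges after injury. Promoter windows of 300 bases, 250 before to 50 after the start, were found for 6 of the 10 members, these 5 and Mmp23. Promoters of Mmp2, Mmp9, Mmp14 and Mmp19 were not analysed here. The stretches below run from 95 to 20 bases before the start, 5′ to 3′ on the plus strand, and capitals mark the AP-1 letters TGANTCA, searched on both strands.
Mmp13, chr8:12782734-12782809: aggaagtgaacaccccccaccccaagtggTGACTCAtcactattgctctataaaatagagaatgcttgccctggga
Mmp12, chr8:12866557-12866632: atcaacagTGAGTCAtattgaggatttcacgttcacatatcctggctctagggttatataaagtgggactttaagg
Mmp3, chr8:12925186-12925261: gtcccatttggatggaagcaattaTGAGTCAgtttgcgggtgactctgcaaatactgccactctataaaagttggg
Mmp10, chr8:12974612-12974687: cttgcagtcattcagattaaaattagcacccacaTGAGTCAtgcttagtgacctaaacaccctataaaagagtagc
Mmp8, chr8:13008795-13008870: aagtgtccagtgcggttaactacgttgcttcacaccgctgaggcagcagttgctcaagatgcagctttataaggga

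The AP-1 letters occurred once in the windows of Mmp3, Mmp10, Mmp12 and Mmp13 and in none of those of Mmp8 and Mmp23. Of all 33469 rat promoters of the same length, 7.33% held them. The letters TATAAA, also searched on both strands, were present in the windows of all 5 cluster members shown, in that of Mmp8 on the minus strand alone, and in 14.2% of all promoters. A match of letters is a description of the sequence and not of binding.

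Mmp2 (gelatinase A, which cuts basement membrane collagen) and Mmp14 (the membrane-type enzyme that activates the Mmp2 proenzyme at the cell surface) were the only members whose mean in control muscle was above 1 TPM. The other 8 passed the filter on low values, a mean above 1 TPM in at least 1 group, only through groups other than control, so differing from control is partly built into their being tested. Mmp2 in control muscles was 11.56, 10.81, 12.73 and 4.9 TPM. At 3 DPI without repair it was 194.65, 148.23 and 124.58 TPM, and at 7 DPI the 8 muscles ran from 254.01 to 726.93 TPM with a median of 505.24. Every injured muscle lay above every control muscle at both days. Mmp2 was 250.28, 258.86, 371.5 and 266.4 TPM at 14 DPI and 133.85, 175.97, 114.79 and 214.81 TPM at 28 DPI. Its level was still several-fold above control at 28 DPI. On the log2(TPM + 1) scale, which understates changes of low genes, Mmp2 was higher than control by 3.88 at 3 DPI (SE 0.36, limma adjusted p = 5.56e-17) and by 5.48 at 7 DPI (SE 0.29, adjusted p = 7.21e-31), and still by 3.90 at 28 DPI (adjusted p = 1.79e-17).

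Mmp14 followed the same course from a lower base. Control muscles held 3.5, 2.94, 3.59 and 1.14 TPM. Injured muscles without repair held 153.54, 129.82 and 116.08 TPM at 3 DPI and between 174.98 and 593.4 TPM at 7 DPI, with a median of 383.66. The difference from control was 6.53 on the log2 scale at 7 DPI (SE 0.28, adjusted p = 1.14e-36), against 5.20 at 3 DPI (SE 0.35, adjusted p = 1.4e-24). By 28 DPI Mmp14 was 55.42, 64.81, 29.73 and 91.8 TPM, a difference of 3.97 (adjusted p = 1.31e-18). Across all injured muscles of every arm and day, 76 in number, Mmp14 was at least 29.73 TPM, and across the 34 contralateral muscles at most 21.72 TPM. Mmp2 separated the same muscles, at 112.69 TPM or more in the injured and at most 72.64 TPM in the contralateral.

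Mmp23, a membrane-anchored member without the usual prodomain switch, was below 1 TPM in each control muscle (0.74, 0.98, 0.76 and 0.59). It was 38.06, 32.83 and 16.64 TPM at 3 DPI, between 18.84 and 62.94 TPM at 7 DPI, and 9.55, 9.69, 9.25 and 12.65 TPM at 28 DPI. Mmp23 was thus raised throughout the course, by 4.02, 4.47, 3.61 and 2.67 on the log2 scale against control at 3, 7, 14 and 28 DPI, each called (adjusted p = 4.12e-13 at 28 DPI).

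Mmp19, a secreted enzyme that cuts basement membrane proteins, was the one broadly raised member with its highest level at the first day sampled. Control muscles held 0.37, 0.3, 0.6 and 0.28 TPM, and injured muscles without repair 80.78, 58.87 and 34.55 TPM at 3 DPI. It ran from 17.77 to 53.64 TPM at 7 DPI and was 7.17, 8.3, 12.87 and 10.19 TPM at 14 DPI and 4.28, 4.1, 3.75 and 6.64 TPM at 28 DPI. The injured muscles lay above the controls at each day, by 5.34 at 3 DPI (SE 0.30, adjusted p = 2.17e-29) and by 2.02 at 28 DPI (adjusted p = 1.1e-09) on the log2 scale. The ranges at 3 and 7 DPI overlapped, and that step was not called, although it passed the log2 limit of 1 with all libraries (-1.06, adjusted p = 0.00416) or without 1 muscle of 3 DPI (-1.04, adjusted p = 0.0047).

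**Figure D1:**
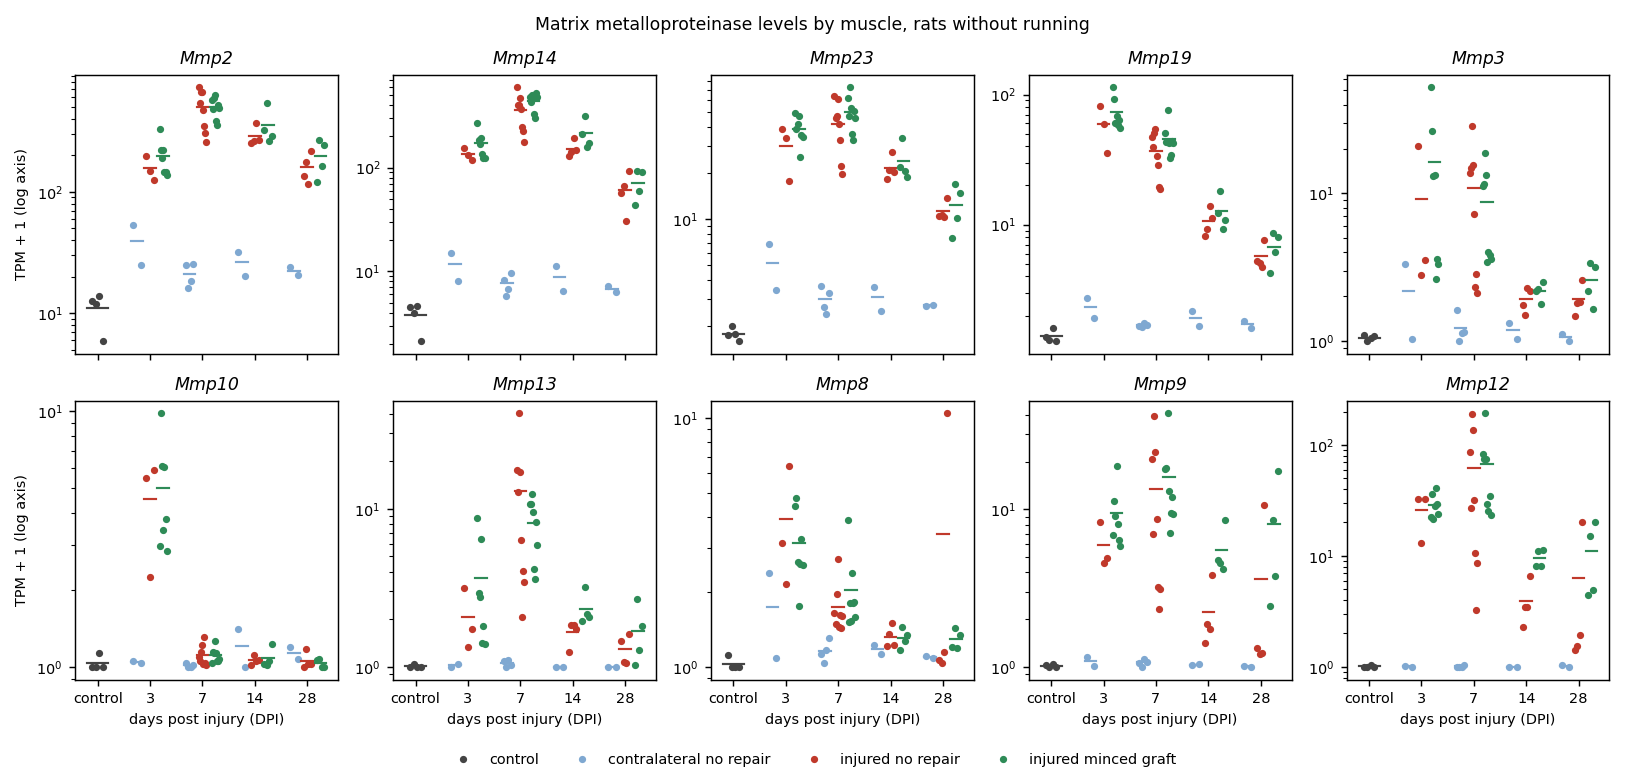
TPM + 1 on a log axis for each of the 10 genes, by muscle (points) and group mean (bars), against day post injury, for control muscle, contralateral and injured muscle without repair, and injured muscle with a graft. Mmp2 and Mmp14 stayed above control through 28 DPI in every injured muscle, Mmp10 was above 1 TPM mainly at 3 DPI, and Mmp12 at 7 DPI without repair spread from 2.25 to 188.11 TPM.

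The stromelysins Mmp3 and Mmp10, which cut proteoglycans, laminins and other matrix proteins and can activate other proenzymes, parted in time. Mmp10 in control muscles was 0, 0, 0.13 and 0 TPM. At 3 DPI without repair it was 4.47, 1.24 and 4.86 TPM, and at 7 DPI the 8 muscles ran from 0.02 to 0.31 TPM. Mmp10 was thus highest at the first day sampled, above control by 2.01 on the log2 scale at 3 DPI (SE 0.25, adjusted p = 1.26e-11) and by 0.10, not called, at 7 DPI. Mmp10 passed the filter on low values only through injured groups at 3 DPI. A rise at 3 DPI and a fall to 7 DPI are therefore partly built into its being tested. It fell between those days by 1.91 on the log2 scale (adjusted p = 4.54e-11). With a graft it ran from 1.85 to 8.81 TPM at 3 DPI and fell by 2.04 to 7 DPI.

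Mmp3 was uneven among muscles of the same group. Control muscles held 0.09, 0, 0.04 and 0.08 TPM, and injured muscles without repair 20.08, 1.8 and 2.53 TPM at 3 DPI, with 1.11 to 27.83 TPM and a median of 9.52 at 7 DPI. One muscle carried most of the level at 3 DPI. The difference from control was 2.49 at 3 DPI (SE 0.87, adjusted p = 0.00628) and 2.82 at 7 DPI (SE 0.69, adjusted p = 0.000138), and it was 1.58 at 3 DPI (adjusted p = 0.121) without the injured muscle at 20.08 TPM. At 14 and 28 DPI it was 0.86 and 0.85, not called. Grafted muscles at 3 DPI spread from 1.61 to 51.59 TPM.

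Mmp13 (collagenase-3, the main interstitial collagenase of rodents) was 0, 0.04, 0 and 0 TPM in control muscles and 2.15, 0.34 and 0.74 TPM at 3 DPI without repair. At 7 DPI the 8 muscles ran from 1.08 to 39.26 TPM with a median of 8.53. Each was above every control and the difference was 3.08 on the log2 scale (SE 0.52, adjusted p = 8.5e-08), whereas at 3 DPI it was 0.94 (adjusted p = 0.165). Mmp13 rose between those days by 2.14 (adjusted p = 0.00172), a call lost when the compared groups were fitted alone (adjusted p = 0.0535). At 14 DPI it was 0.24, 0.83, 0.85 and 0.73 TPM, close to the values at 3 DPI.

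Mmp8 (neutrophil collagenase, stored in neutrophil granules) moved the other way. It was 0.12, 0, 0 and 0 TPM in control muscles, 2.15, 1.16 and 5.42 TPM at 3 DPI and 0.43 to 1.71 TPM at 7 DPI, with a median of 0.605. The difference from control was 1.78 at 3 DPI (SE 0.38, adjusted p = 2.03e-05) and 0.72 at 7 DPI (adjusted p = 0.0248), the second short of the log2 limit of 1 used for calls. It fell from 3 to 7 DPI by 1.05 on the log2 scale (adjusted p = 0.01), and by 0.89, not called, within the rats numbered 001 to 032 alone. At 28 DPI Mmp8 was 0.07, 0.04, 0.15 and 9.45 TPM, with 1 muscle far above the rest. Neutrophil genes (S100a8, S100a9 and 6 others) summed to 4.1 TPM in control muscle and to 177, 45.7, 17.5 and 7.7 TPM at 3, 7, 14 and 28 DPI, with Elane and Camp at 0 in each control muscle. Their part in the Mmp8 level was not tested.

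Mmp9 (gelatinase B, made by neutrophils, macrophages and osteoclasts) was 0.03, 0, 0.05 and 0 TPM in control muscles and 7.32, 3.54 and 3.93 TPM at 3 DPI without repair. It ran from 1.33 to 38.03 TPM at 7 DPI with a median of 6.845. Each injured muscle at these days lay above the controls, by 2.49 at 3 DPI (SE 0.64, adjusted p = 0.000295) and 3.06 at 7 DPI (SE 0.52, adjusted p = 9.48e-08) on the log2 scale. At 14 DPI it was 0.41, 0.87, 0.73 and 2.86 TPM, a difference that did not pass (adjusted p = 0.121). At 28 DPI it was 0.31, 0.2, 0.23 and 9.64 TPM, so that 1 muscle held nearly all of the signal.

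Mmp12 (macrophage elastase) was next to absent from control muscle and reached a mean of 60.9 TPM at 7 DPI without repair. Control muscles held 0, 0, 0.04 and 0 TPM, and no contralateral muscle of any group exceeded 0.09 TPM. Injured muscles without repair held 31.47, 12.1 and 31.35 TPM at 3 DPI and 2.25 to 188.11 TPM at 7 DPI, with a median of 28.6. These are differences from control of 4.57 (SE 0.78, adjusted p = 1.62e-07) and 4.87 (SE 0.63, adjusted p = 3.16e-11) on the log2 scale. At 14 DPI it was 1.28, 2.49, 2.45 and 5.61 TPM, a difference of 1.86 (adjusted p = 0.018), and at 28 DPI 0.42, 0.55, 0.92 and 19.33 TPM, a difference of 1.59 (adjusted p = 0.0435). The calls at both late days rested on 1 muscle each, the difference being 1.58 at 14 DPI (adjusted p = 0.0668) and 0.68 at 28 DPI (adjusted p = 0.418) without the highest. The call at 28 DPI was also lost without the filter on low values (adjusted p = 0.0566) and without any single control muscle. With control averaged per rat neither was called (adjusted p = 0.062 at 14 DPI and 0.114 at 28 DPI). Macrophage genes (Cd68, Csf1r and 6 others) summed to 16.8 TPM in control muscle and 1430, 559, 247 and 160 TPM over the course. The muscle at 19.33 TPM had the highest macrophage sum of its group, 217.47 TPM against 126.54 to 152.18 TPM, and their part in the Mmp12 level was not tested.

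Counted together, 9, 8, 5 and 5 of the 10 members were called higher than control at 3, 7, 14 and 28 DPI without repair and none lower. Calls in either direction covered 52.6%, 48.1%, 25.5% and 21.3% of the 11328 genes tested at those days. The members' median log2 differences were 3.19, 3.78, 1.43 and 1.33, against 0.96, 0.91, 0.53 and 0.52 over all genes. Scaling by size factors brought the median of all genes down by 0.85, 0.80, 0.48 and 0.46, to 0.11, 0.11, 0.04 and 0.06, and left 9, 8, 5 and 5 members called. The 4 days share the same control muscles.

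The unoperated leg of operated rats gave a second reference. Mmp9, Mmp10, Mmp12 and Mmp13 passed the filter on low values only through injured groups. For them, differing from contralateral muscle is also partly built into their being tested, with a graft or without. Against contralateral muscle without repair 8, 8, 4 and 4 members were called higher at 3, 7, 14 and 28 DPI, where calls in either direction covered 38.2%, 47.4%, 21.1% and 13.3% of genes. Mmp2, Mmp14, Mmp19 and Mmp23 were called at each day, with Mmp14 higher by 3.58, 5.48, 4.15 and 3.08 on the log2 scale. Mmp12 was higher by 4.57 at 3 DPI and 4.87 at 7 DPI, and by 1.88 (adjusted p = 0.0579) and 1.58 (adjusted p = 0.128) later. Mmp8 was called at 3 DPI (1.13, adjusted p = 0.0241), a call lost under size factors (adjusted p = 0.0815) and when single muscles were left out.

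In grafted rats 9, 8, 6 and 6 members were called higher than contralateral muscle, where calls in either direction covered 44%, 46.2%, 26.1% and 19.1% of genes. The members called at 14 and 28 DPI were Mmp2, Mmp14, Mmp19 and Mmp23, as without repair, and also Mmp9 and Mmp12. Mmp9 was higher by 2.40 at 14 DPI (adjusted p = 0.00279) and 2.59 at 28 DPI (adjusted p = 0.00169), and Mmp12 by 3.19 (adjusted p = 0.00118) and 3.18 (adjusted p = 0.00155). Both genes also passed at 3 and 7 DPI. The calls of Mmp3 (2.13, adjusted p = 0.0281) and Mmp13 (1.53, adjusted p = 0.0348) at 3 DPI were lost under size factors.

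**Figure D2:**
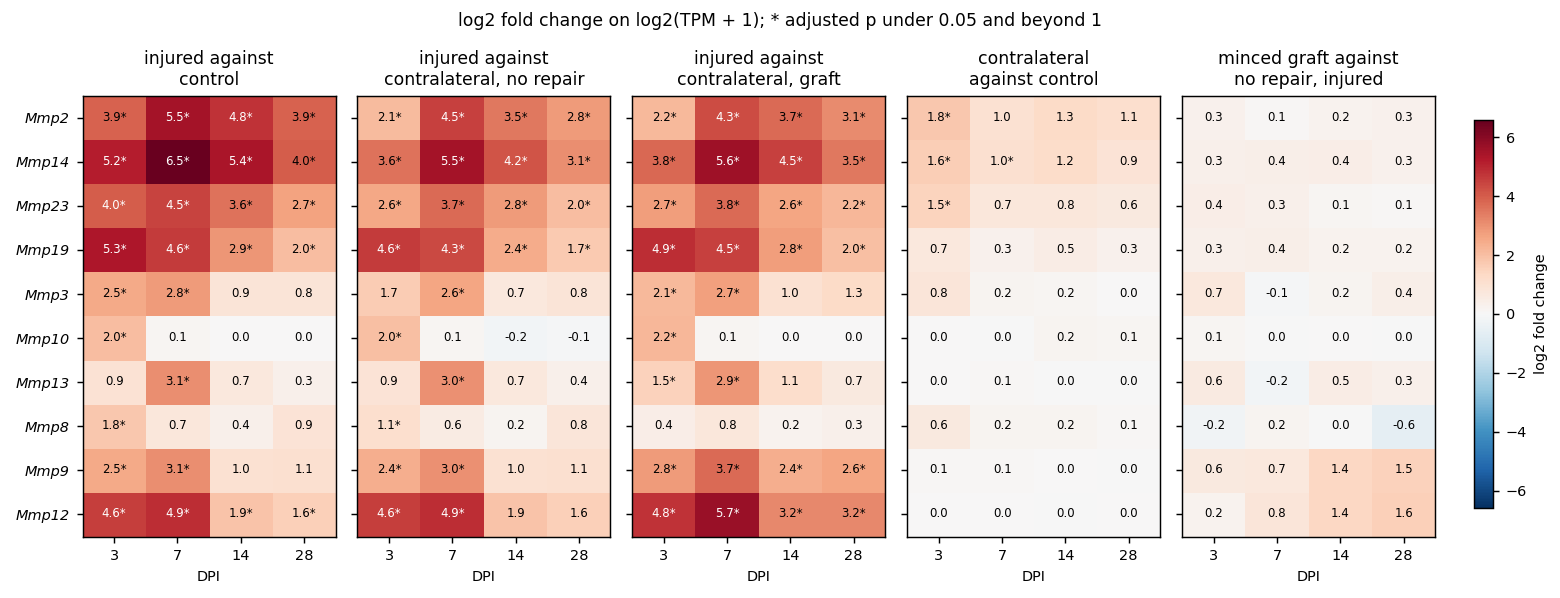
Difference in log2(TPM + 1) of each of the 10 genes (rows) at 3, 7, 14 and 28 days post injury in 5 comparisons, colored from lower to higher, with a star where the gene was called at adjusted p under 0.05 and a difference beyond 1. Mmp2, Mmp14, Mmp19 and Mmp23 carry stars at each day of the 3 injury comparisons, and the comparison of graft with no repair carries none.

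The unoperated leg was not at the control level for the most abundant members. Contralateral muscles without repair at 3 DPI held 52.15 and 23.89 TPM of Mmp2, 14.16 and 7.14 TPM of Mmp14 and 5.91 and 2.44 TPM of Mmp23, each above the 4 controls. Of the 10 members 3, 1, 0 and 0 were called higher than control by limma at 3, 7, 14 and 28 DPI, and 4, 3, 3 and 2 had an unadjusted p under 0.05. Calls in either direction covered 6.43%, 0.803%, 0.715% and 0.185% of genes, and the share of all genes at the unadjusted limit is not given here. The 3 called at 3 DPI were Mmp2 (1.80, adjusted p = 0.000355), Mmp14 (1.61, adjusted p = 0.000768) and Mmp23 (1.47, adjusted p = 0.000669), and the 1 at 7 DPI was Mmp14 (1.05, adjusted p = 0.0318), a call lost without some single muscles. Without the first of the 2 contralateral muscles at 3 DPI, which leaves 1 muscle assumed to vary like the other groups, the differences were 1.25, 1.16 and 0.97, with adjusted p of 0.102, 0.114 and 0.137. That muscle also had summed neutrophil genes of 103.02 TPM against 8.73 TPM in the other, and fibroblast genes (Pdgfra, Dcn and 6 others) of 850.58 against 317.81 TPM, beside 48.77 to 177.15 TPM in control. At 3 DPI all 8 fibroblast and all 8 macrophage genes were also called higher in contralateral muscle than in control. Their part in the result was not tested.

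The graft comparison asks whether returning minced tissue altered the course. None of the 10 members was called between grafted and non-repaired injured muscle by limma at 3, 7, 14 or 28 DPI, and 0, 0, 1 and 2 had an unadjusted p under 0.05. Calls covered 0.00883%, 0.0883%, 0.0265% and 0% of genes, so few genes of any kind were called. At an unadjusted p under 0.05 far more genes passed at 7 DPI, a share given with the gene lists below. For the other days that share is not given here. For Mmp2 the difference at 7 DPI was 0.08 on the log2 scale with a 95% interval from -0.39 to 0.55, and for Mmp14 0.37 from -0.08 to 0.83. Over all rats these intervals do not reach a doubling. Mmp14 differed by rat number, with means of 408 TPM with a graft and 253 TPM without in later rats, and 472 and 464 TPM in rats 001 to 032. The intervals of Mmp9 and Mmp12 were wider and lay higher at the late days.

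Mmp9 at 14 DPI was 3.8, 3.54, 3.16 and 7.56 TPM with a graft, above all 4 non-repaired muscles (0.41 to 2.86 TPM). The difference was 1.37 on the log2 scale (95% interval 0.18 to 2.55, adjusted p = 0.73). In running rats, which share no muscle with these, Mmp9 at 14 DPI was 4.02, 7.69, 5.77 and 4.08 TPM with a graft and 0.19, 1.87, 1.13 and 2.51 TPM without. The groups again did not overlap, and the difference was 1.47 (95% interval 0.29 to 2.65), not called after adjustment. The share of all genes that separated graft from no repair without overlap at 14 DPI is not given here. These separations can therefore not be set against it, and Mmp9 at this day is picked out from all the members and days compared. Macrophage genes summed to 243 TPM with a graft and 247 TPM without at 14 DPI in rats not running, and to 305 and 348 TPM in running rats. Neutrophil genes summed to 18.6 and 17.5 TPM in rats not running, and to 23.5 and 15.3 TPM in running rats. The part of these cells in the Mmp9 difference was not tested.

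Mmp12 at 14 DPI was 7.11, 10, 7.07 and 10.37 TPM with a graft. These values were likewise above the non-repaired muscles (1.28 to 5.61 TPM), again without a share of all genes to set this against. The difference was 1.37 (95% interval -0.07 to 2.82, adjusted p = 0.73). In running rats the 2 groups overlapped, at 7.11, 21.2, 13.37 and 17.1 TPM with a graft and 0.83, 4.83, 9.45 and 20.02 TPM without. At 28 DPI Mmp9 was 1.45, 7.61, 2.77 and 16.64 TPM with a graft, 1.52 above no repair (95% interval 0.34 to 2.71, adjusted p = 0.999). Mmp12 was then 3.47, 14.2, 3.93 and 19.05 TPM with a graft, 1.57 above no repair (95% interval 0.13 to 3.01, adjusted p = 0.999). At 28 DPI each graft range overlapped the range without repair through the single high non-repaired muscle.

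Among running rats none of the 10 members was called between graft and no repair by limma, and 0, 0, 1 and 3 had an unadjusted p under 0.05 at 3, 7, 14 and 28 DPI. Calls covered 0%, 0%, 0.0177% and 0.0177% of genes, and the share of all genes at the unadjusted limit is not given here. The largest difference was that of Mmp9 at 28 DPI, 3.69 (95% interval 2.02 to 5.36, adjusted p = 0.0914), which was called when no filter on low values was used (adjusted p = 0.0434). It rested on 2 grafted muscles at 85.83 and 3.45 TPM against 0.43 and 0.62 TPM without repair. The same grafted muscle held 133.04 TPM of Mmp12, 11.16 TPM of Mmp13 and 17.31 TPM of Mmp3, against 3.36, 0.32 and 0.84 TPM in the other. Mmp2 in these 2 muscles was 136.56 and 119.08 TPM, beside 156.49 and 140.33 TPM without repair. The muscle high in Mmp9 had a macrophage sum of 312.36 TPM against 154.85 TPM and a neutrophil sum of 26.78 against 18.09 TPM, whose part in the result was not tested.

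**Figure D3:**
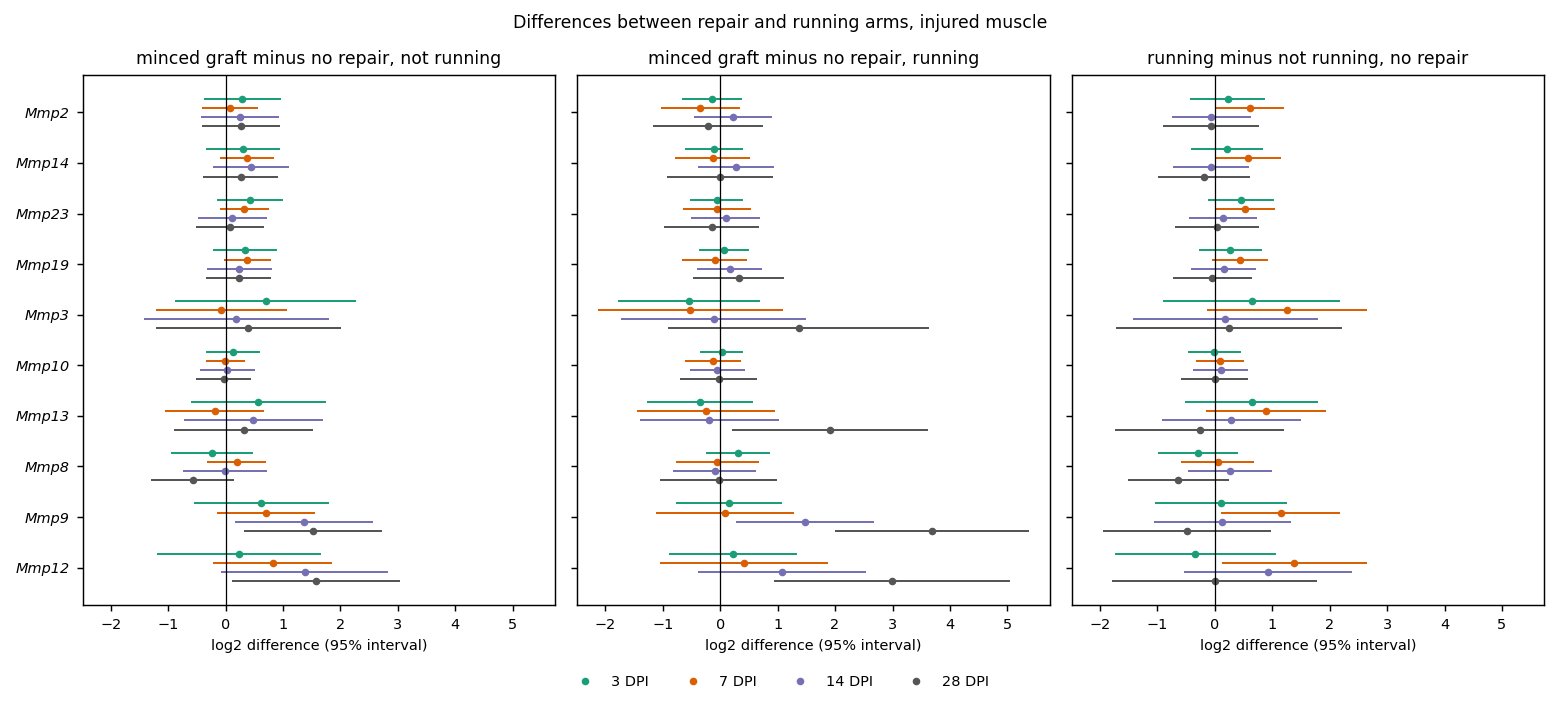
Difference in log2(TPM + 1) with its 95% interval for each gene and day, for graft against no repair in rats not running and in running rats, and for running against not running without repair. Most intervals cover 0, and those of Mmp9 for graft against no repair lie above 0 at 14 and 28 DPI in both arms.

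Running was compared within each repair arm. Without repair 0 members were called by limma at each of the 4 days, and 0, 5, 0 and 0 had an unadjusted p under 0.05, where calls covered 0.0441%, 0%, 0.0177% and 0.0177% of genes. With a graft 0 were called at each day and 0, 0, 0 and 1 had an unadjusted p under 0.05, where 0% of genes were called at each day. For the interaction of running and repair 0 were called, with 0, 0, 0 and 1 at an unadjusted p under 0.05, where calls covered 0.00883%, 0%, 0% and 0.00883% of genes. The share of all genes at the unadjusted limit is not given here, so these counts cannot be set against it. The 5 at 7 DPI without repair came with a difference in rat numbers. Mmp12 was 1.39 higher in running muscles (95% interval 0.14 to 2.64, adjusted p = 0.201), Mmp9 1.15 higher (0.12 to 2.17, adjusted p = 0.199) and Mmp2 0.61 higher (0.03 to 1.19). All 4 running muscles came from rats numbered 001 to 032, as did 4 of the 8 not running, and within those rats the differences were -0.20, -0.02 and 0.14. At 3 DPI without repair the muscles not running were all from rats 001 to 032 and 4 of the 8 running ones were from later rats. Within rats 001 to 032 (4 against 3) Mmp3 was then 2.19 higher in running muscles (SE 0.74, adjusted p = 0.103) and Mmp13 1.34 higher (SE 0.58, adjusted p = 0.225), against 0.64 and 0.64 over all rats. The interaction at 3 DPI within those rats was -2.83 for Mmp3 (SE 0.99, adjusted p = 0.717) and -1.53 for Mmp13 (SE 0.77, adjusted p = 0.882). None of these was called.

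The rats were split by their numbers in the labels into 2 runs, 001 to 032 and later ones. Both were present among injured muscles at 7 DPI in each arm not running. The later run is not continuous, and within it each day has its own stretches of numbers, so number and day change together there. Mmp12 without repair averaged 109 TPM in the 4 rats numbered 001 to 032 (26.24 to 188.11) and 12.6 TPM in the 4 later rats (2.25 to 30.96). Mmp9 averaged 21.5 TPM (6.01 to 38.03) and 3.33 TPM (1.33 to 7.68). Mmp3 averaged 17.3 TPM (12.82 to 27.83) and 2.62 TPM (1.11 to 6.22). For Mmp3 the 2 sets of rats did not overlap, and for Mmp9 and Mmp12 they overlapped at their edges.

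Mmp2 averaged 647 TPM in rats 001 to 032 and 345 TPM in the later rats, also without overlap. In all, 6 of the 10 members, Mmp2, Mmp3, Mmp13, Mmp14, Mmp19 and Mmp23, were higher without overlap in rats 001 to 032, where 17.9% of all genes tested did so in that direction. With a graft 4 members did so, Mmp3, Mmp9, Mmp12 and Mmp13, against 3.82% of genes. Mmp12 with a graft averaged 106 TPM (74.04 to 192) against 27.1 TPM (22.41 to 33.43), and Mmp3 12.7 against 2.71 TPM. The macrophage sum without repair was 739 TPM in rats 001 to 032 against 379 TPM, the fibroblast sum 5279 against 3255 TPM, the muscle fiber sum 42009 against 64202 TPM and the neutrophil sum 41.2 against 50.2 TPM. What the run of numbers stands for is not given in the labels, and the part of these cell type genes was not tested.

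The runs of numbers are unevenly placed over the days. Rats not running and without repair at 3 DPI were all from 001 to 032, whereas contralateral muscles at 7 DPI without repair and all muscles at 14 and 28 DPI came from later rats. Within the later rats, injured against contralateral muscle at 7 DPI (4 against 4) gave calls for 8 members, where 43.9% of genes were called, among them Mmp2 at 4.02, Mmp12 at 3.28, Mmp9 at 1.82 and Mmp3 at 1.40 on the log2 scale. Within rats 001 to 032, the step from 3 to 7 DPI without repair was a rise of 3.35 for Mmp13, 1.88 for Mmp12 (adjusted p = 0.0427) and 1.74 for Mmp9 (adjusted p = 0.0321), the last 2 not called over all rats. Within later rats that step was available with a graft, from 2 muscles at 3 DPI and 4 at 7 DPI, whose rat numbers do not overlap. There Mmp12 differed by 0.07 (adjusted p = 0.956) and Mmp9 by 0.60 (adjusted p = 0.518), beside 1.76 (adjusted p = 0.0193) for Mmp12 in grafted rats 001 to 032. The graft difference at 7 DPI was 1.5 for Mmp12 and 1.31 for Mmp9 in later rats and 0.14 and 0.10 in rats 001 to 032, none of them called. These splits, and that of the step from 7 to 14 DPI, were chosen after the data were seen.

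**Figure D4:**
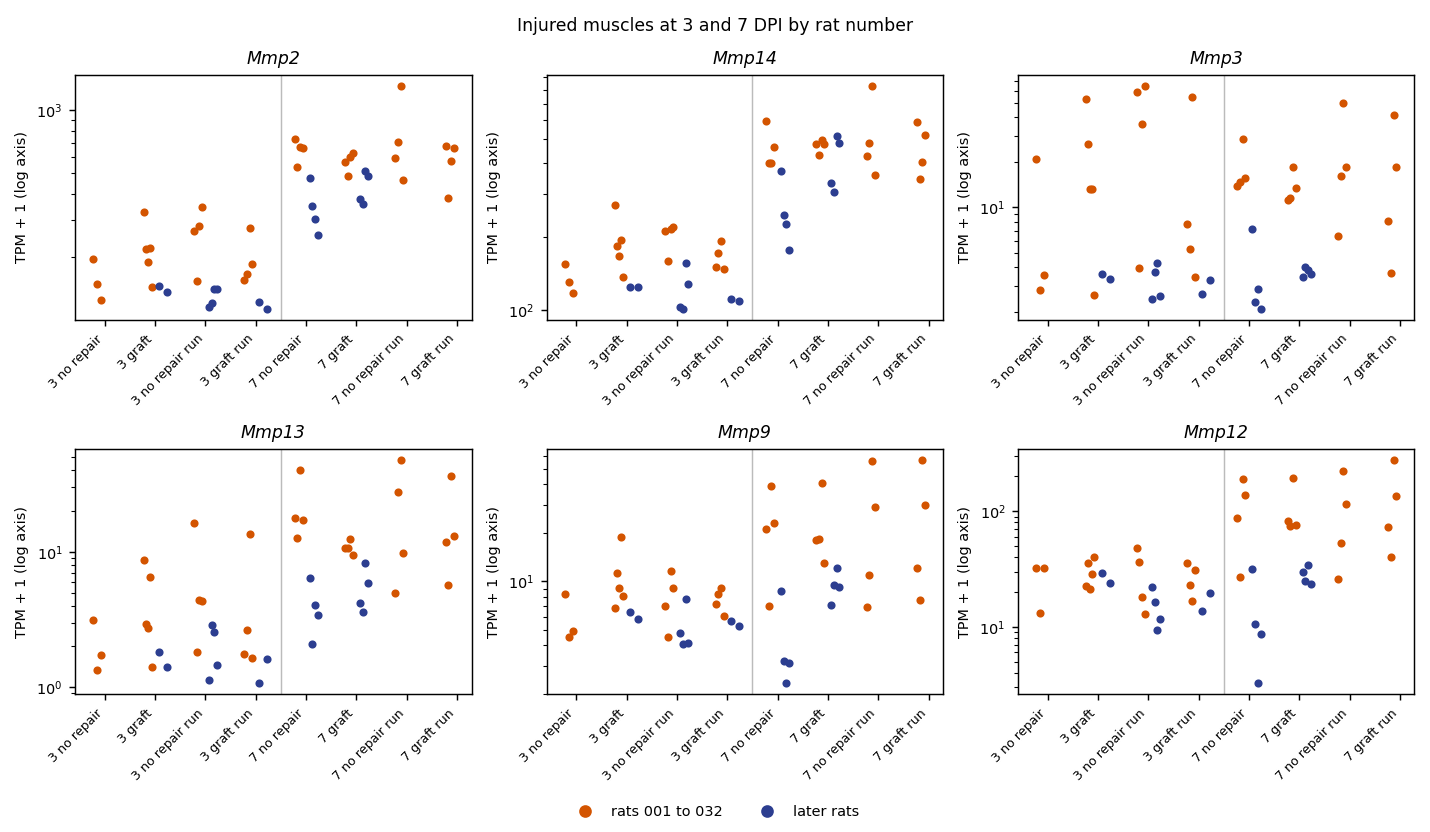
TPM on a log axis of 6 genes in injured muscles at 3 and 7 days post injury by arm, with rats numbered 001 to 032 in orange and later rats in blue. At 7 DPI without repair the blue points of Mmp3 and Mmp13 lie wholly below the orange ones, with Mmp3 means of 17.3 and 2.62 TPM.

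The order of the days was tested step by step. Without repair 5, 6 and 1 members were called at the steps from 3 to 7, 7 to 14 and 14 to 28 DPI, where calls in either direction covered 7.34%, 6.82% and 0.459% of genes. Mmp2 (1.59), Mmp14 (1.33) and Mmp13 rose from 3 to 7 DPI, and Mmp8 and Mmp10 fell. With all libraries kept the rises of Mmp2 (1.23, adjusted p = 0.066) and Mmp14 (0.98, adjusted p = 0.0828) were not called, and within rats 001 to 032 both were called. The fall of Mmp8 was not called under size factors (-0.93) or without the muscle highest at 3 DPI (-0.62, adjusted p = 0.215). From 7 to 14 DPI Mmp12 fell by 3.01, Mmp13 by 2.38, Mmp9 by 2.05, Mmp3 by 1.96, Mmp19 by 1.71 and Mmp14 by 1.15 on the log2 scale. Mmp14 was not called under size factors (-0.76) or with all libraries (-0.80, adjusted p = 0.195), and Mmp3 was not called with all libraries (adjusted p = 0.127). That step sets both runs of rat numbers against later rats alone. Among later rats the numbers at 7 and 14 DPI still do not overlap in either arm, so a fit within them does not hold the number fixed. Within later rats (4 against 4), where 2.79% of genes were called, the differences were -1.23 for Mmp19 and -1.17 for Mmp13, both called, and -1.43 for Mmp12 (adjusted p = 0.0572), -0.88 for Mmp9 (adjusted p = 0.145), -0.74 for Mmp3 (adjusted p = 0.0545) and -0.70 for Mmp14 (adjusted p = 0.0498), not called. From 14 to 28 DPI Mmp14 was called (fell by 1.40, adjusted p = 0.0106). That call was lost without 1 muscle of 28 DPI (adjusted p = 0.113), without 1 of 14 DPI (adjusted p = 0.0667) and with all libraries (adjusted p = 0.213).

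With a graft 4, 7 and 1 members were called at the same steps, where calls covered 6.94%, 10.8% and 1.36% of genes. The 4 were rises of Mmp14 (1.39), Mmp2 (1.38) and Mmp13 (1.38) and the fall of Mmp10, and the 1 was Mmp14 again, which fell by 1.58. The 7 that fell from 7 to 14 DPI were the 6 of the arm without repair and Mmp23 (by 1.07). Under size factors Mmp14 (-0.70), Mmp23 (-0.69), Mmp3 (adjusted p = 0.0742) and Mmp9 (adjusted p = 0.0734) were not called at this step. Within later rats, where 8.93% of genes were called, the called members were Mmp19 (-1.64), Mmp12 (-1.55, adjusted p = 0.034) and Mmp13 (-1.18). The day of the highest mean was the same in all 4 arms of repair and running for 8 of 10 members. Mmp2, Mmp12, Mmp13, Mmp14 and Mmp23 were highest at 7 DPI in each arm and Mmp8, Mmp10 and Mmp19 at 3 DPI, while Mmp3 was highest at 3 DPI in the graft arm and at 7 DPI in the others. Within rats 001 to 032, Mmp3 in running rats without repair averaged 39.9 TPM at 3 DPI and 21.9 TPM at 7 DPI, the opposite order to that over all rats. Mmp9 was highest at 7 DPI but for running rats with a graft, where 1 muscle set the highest mean at 28 DPI.

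Summed over the 10 members, the level was 14.1 TPM in control muscle (6.99 to 17.94) and 422, 1027, 475 and 247 TPM in injured muscle without repair at 3, 7, 14 and 28 DPI. With a graft it was 538, 1132, 614 and 305 TPM. Contralateral muscle without repair stood between, at 56.2, 30.0, 36.5 and 29.9 TPM. The make-up of the sum changed as well as its size. Mmp2 held 70.8% of it in control muscle, 37.0% at 3 DPI and 66.1% at 28 DPI, and Mmp14 held 19.3%, 32% and 24.0%. Mmp19 went from 2.90% in control to 13.4% at 3 DPI and 1.96% at 28 DPI, and Mmp12 from 0.0557% to 6.06% at 3 DPI. Mmp2 and Mmp14 together held 90.1% in control and again 90.1% at 28 DPI, with 69.0% at 3 DPI.

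**Figure D5:**
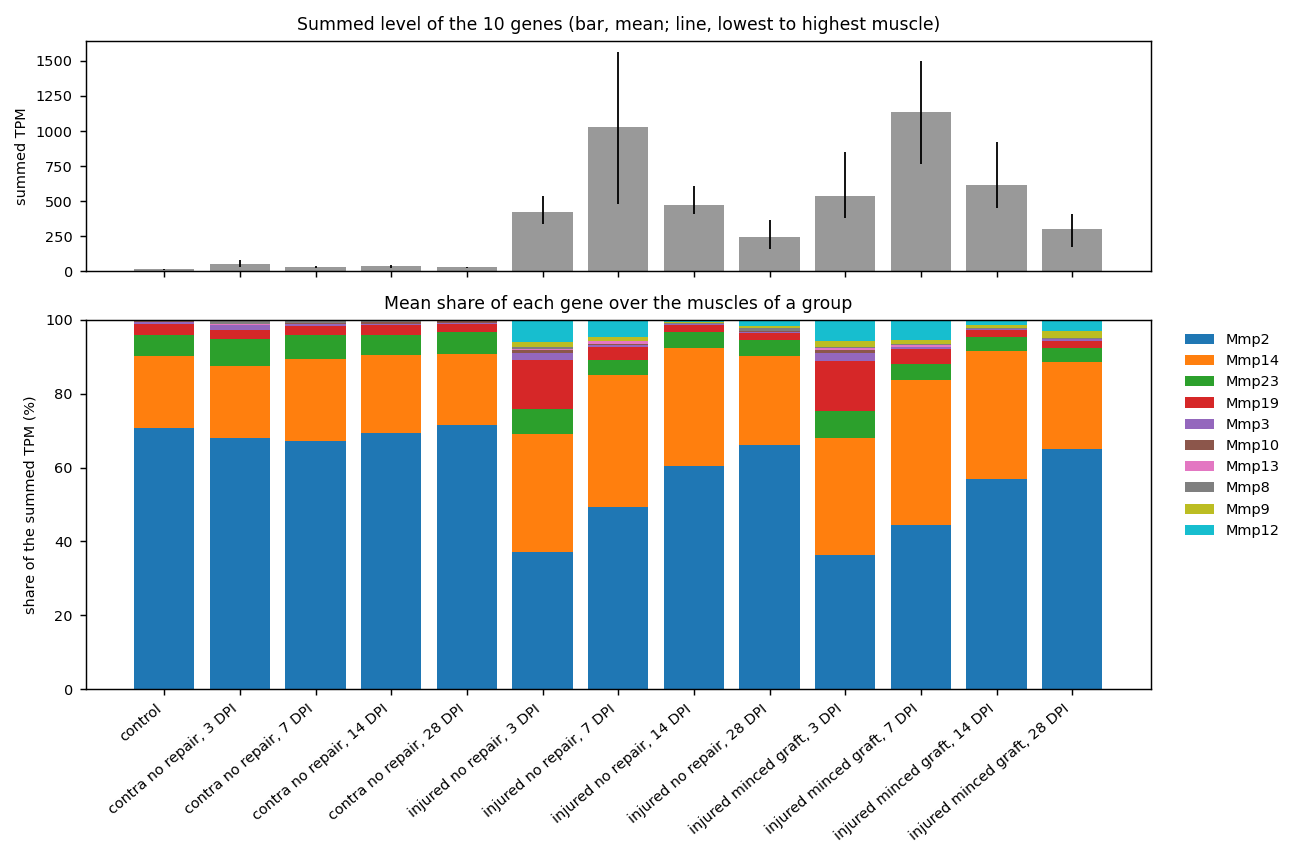
Summed TPM of the 10 genes per group, as the mean with a line from the lowest to the highest muscle, and the mean share of each gene in that sum. The sum rose from 14.1 TPM in control to 1027 TPM at 7 DPI without repair, where the share of Mmp2 was lowest at 3 DPI, at 37.0%.

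Muscles of 1 group differed more for some members than for others. At 7 DPI without repair the highest of the 8 muscles was 2.86 times the lowest for Mmp2, 3.39 times for Mmp14, 3.34 times for Mmp23 and 3.02 times for Mmp19. It was 25.1 times for Mmp3, 28.6 times for Mmp9, 36.4 times for Mmp13 and 83.6 times for Mmp12, with Mmp8 at 3.98 and Mmp10 at 15.5 times, both on values of a fraction of 1 TPM up to 1.71 TPM. These 8 muscles mix both runs of rat numbers, and at 3 DPI, where the 3 muscles were all from rats 001 to 032, the highest was 2.07 times the lowest for Mmp9, 2.60 times for Mmp12, 6.32 times for Mmp13 and 11.2 times for Mmp3, beside 2.34 times for Mmp19 and 2.29 times for Mmp23. Within rats 001 to 032 at 7 DPI Mmp12 still ran from 26.24 to 188.11 TPM and Mmp9 from 6.01 to 38.03 TPM.

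Of the other 11 Mmp symbols listed, 8 were tested, and 3, 4, 3 and 2 were called higher than control at 3, 7, 14 and 28 DPI without repair, beside the 52.6%, 48.1%, 25.5% and 21.3% of all genes called in either direction. Mmp11 (stromelysin-3, known from stromal fibroblasts) was called at each day, with a mean of 0.21 TPM in control and 5.52, 10.7, 4.32 and 2.80 TPM after injury. Mmp17 was called at the first 3 days, by 1.06, 1.61 and 1.13 on the log2 scale. Mmp7 was called at 3 DPI, Mmp16 at 7 and 14 DPI, Mmp28 at 7 DPI and Mmp27 at 28 DPI. Mmp15, a membrane-type enzyme with a mean of 19.7 TPM in control muscle, was not called, at -0.02, 0.36, 0.55 and 0.47.

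Inhibitors of the enzymes were counted in the same way. Of 6 inhibitor genes 4, 4, 5 and 4 were called higher than control, with medians of 2.06, 2.27, 1.40 and 1.42 on the log2 scale, where 52.6%, 48.1%, 25.5% and 21.3% of all genes were called in either direction. Timp1, the inducible inhibitor, went from 2.16 TPM to 490, 242, 42.7 and 23.0 TPM, a difference of 7.20 at 3 DPI, and like Mmp19 its mean was highest at the first day. Timp2, which also takes part in Mmp14's activation of Mmp2, went from 26.6 TPM to 359, 451, 266 and 184 TPM. Timp3 was called at 14 and 28 DPI (1.03 and 1.24). Timp4 differed from control by -0.99, -0.80, -0.60 and -0.07, not called, and was called lower than contralateral muscle at 3 DPI (fell by 1.21 on the log2 scale).

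Genes for activating the proenzymes and for inducing their transcription were counted against control, where 52.6%, 48.1%, 25.5% and 21.3% of all genes were called in either direction. All 7 tested of 8 genes for proenzyme activation and its partners were called higher at 3 and 7 DPI, and 5 and 3 at 14 and 28 DPI, among them Plaur (the urokinase receptor, 4.17) and Plau (urokinase, 3.89) at 3 DPI. Of 11 tested cytokine and AP-1 genes 10, 8, 4 and 2 were called higher, led by Junb (3.62), Il6 (3.18) and Fosl1 (3.03). The 9 tested matrix substrate genes were called higher at each day, led by Col1a1 (6.47), Col3a1 (6.14) and Col1a2 (5.98) at 3 DPI. The 8 macrophage genes and the 8 fibroblast genes were called higher at each day, and 8, 6, 3 and 1 of the 8 muscle fiber genes were called lower. Neutrophil genes were called higher in 4, 3, 2 and 0 of the 5 tested, endothelial genes in 2, 3, 2 and 1 of 4, cartilage and bone genes in 1, 2, 2 and 0 of the 2 tested, and adipocyte genes in 1, 1, 1 and 3 of the 3 tested. Between graft and no repair no gene of these lists was called by limma at any day, while at 7 DPI the 8 macrophage genes all had an unadjusted p under 0.05, as had 27% of all genes. These lists share the control muscles with the members, and their part in the members' levels was not tested.

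Likeness among genes was measured as Pearson's r of the means of log2(TPM + 1) over the 31 groups, given as a description because groups share animals, days and tissue make-up. Among the 45 pairs of members Mmp2 with Mmp14 (0.986), Mmp14 with Mmp23 (0.984) and Mmp9 with Mmp12 (0.976) were the most alike, and Mmp10 with Mmp13 the least (0.207). Over all genes tested Mmp2 was nearest to Ssc5d (0.996) and Adamts2 (0.994), Mmp14 to Col6a2 (0.998) and Col16a1 (0.997), and Mmp23 to P3h3 (0.997) and Loxl2 (0.996). Mmp19 was nearest to Ttpal (0.998) and Tes (0.998). Mmp12 was nearest to Ccl9 (0.992) and Rgs1 (0.985), and Mmp9 to Sctr (0.985) and Ccl9 (0.977). Mmp13 was nearest to Tnfsf11 (0.988) and Irg1 (0.971), Mmp10 to Cdh16 (0.987) and Bpifb1 (0.979), Mmp3 to Lbp (0.962) and Sdcbp2 (0.960), and Mmp8 to Parp3 (0.942).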

How the data were processed

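Total RNA of TA muscles was sequenced as paired 76 bp reads, and TPM values were estimated by the authors with kallisto against rat build 6.0 and deposited as 1 summary table. The count-based test of the study was not used here, since TPM are not counts. Libraries with fewer than 7000 symbols above 1 TPM were dropped, the remaining libraries of a muscle were averaged (2 muscles), and log2(TPM + 1) was fitted with limma 3.58.1 (intensity trend, R 4.3.3) in 1 model of 114 muscles and 31 groups. Genes with a mean above 1 TPM in at least 1 group were tested, 11328 in all, with Benjamini-Hochberg adjustment within a comparison. A gene was called at adjusted p under 0.05 and a log2 difference beyond 1. Groups came from the labels. No library duplicated another (0 identical pairs). P-values rest on the spread between muscles; 36 of 78 rats gave muscles of both legs.

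Named genes were all 10 members, other Mmp symbols, list members with the largest change at 3 DPI, and the 2 genes nearest in r to each member; some genes the rule names are not reported here. Lists and members were chosen with earlier results of these data known. Alternatives were another pseudocount, no filter, size factors, all libraries, other sample sets and models, the rat as a block and leaving out each muscle. Muscles of 1 rat deviated together with a mean r of 0.0722 over 36 pairs, against -0.00871 for different rats. Python 3.11.15 prepared the tables, and the fit was tested on simulated data. Promoter letters came from RefSeq, GRCr8.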

Additional observations from a re-analysis of the deposited data

Results flagged for a closer look

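Among the 114 combinations of a member and a group of 4 to 10 muscles in which the mean was at least 1 TPM, 9 held 1 muscle far from the rest of its group. Some combinations reached that mean only through the outlying muscle, such as Mmp8, Mmp9 and Mmp12 at 28 DPI without repair. The 9 can therefore not be set against the 1 in 20 that chance gives. At 28 DPI without repair, the same muscle stood apart for 4 members, at 9.45 TPM of Mmp8 (others 0.04 to 0.15), 9.64 TPM of Mmp9 (0.2 to 0.31), 19.33 TPM of Mmp12 (0.42 to 0.92) and 12.65 TPM of Mmp23 (9.25 to 9.69). It had the highest sums of its group for macrophage genes (217.47 TPM, others 126.54 to 152.18), fibroblast genes (1647.16, others 1032.65 to 1289.56) and matrix substrate genes (3682.57, others 2183.97 to 2818.22), and a neutrophil sum within the range of the others, the highest of which was 11.1 TPM. At 3 DPI 1 muscle of a running rat with a graft held 53.28 TPM of Mmp3 (others 1.64 to 6.785) and 12.62 TPM of Mmp13 (0.07 to 1.64). The remaining 3 were Mmp2 at 371.5 TPM at 14 DPI without repair (others 250.28 to 266.4), Mmp8 at 8.19 TPM at 3 DPI in running rats without repair (0.53 to 1.99) and Mmp19 at 70.55 TPM at 7 DPI in running rats without repair (38.08 to 40.17).

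The 8 running 28 DPI libraries whose title and label name opposite muscles entered no comparison, and 7 members were above both 1 TPM and the highest control muscle in at least 1 of them. Their highest values were 195.85 TPM of Mmp2 (highest control 12.73), 77.73 of Mmp14 (3.59), 15.14 of Mmp23 (0.98), 13.86 of Mmp12 (0.04), 6.85 of Mmp9 (0.05), 5.62 of Mmp19 (0.6) and 3.16 TPM of Mmp3 (0.09). The highest values of Mmp8 (0.16), Mmp10 (0.2) and Mmp13 (0.18 TPM) were also above the highest control, at 0.12, 0.13 and 0.04 TPM, but below 1 TPM.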

How the results depend on the processing

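No called result changed direction under any alternative, while differences that were not called did, such as running against not running at 7 DPI without repair for Mmp12 and Mmp9 within rats 001 to 032. The counts of members called in injured against control and against contralateral muscle stayed within 1.5 times under each alternative but a pseudocount of 0.1. A pseudocount of 0.1 raised the calls of injured against control to 9 at 14 DPI and 8 at 28 DPI, of injured against contralateral without repair to 7 at 14 DPI, of contralateral against control to 5, 3 and 3 at 3, 7 and 14 DPI, and of the last step with a graft to 3. With size factors, contralateral against control gave 2 at 7 DPI and 2 at 14 DPI, and the step to 14 DPI with a graft gave 3. With all libraries, contralateral against control gave 1 at 3 DPI and 0 at 7 DPI, and the last step without repair gave 0. With the compared groups alone, contralateral against control gave 0 at both 3 and 7 DPI, with control averaged per rat 0 at 7 DPI, and with the non-running groups alone 1 at 14 DPI. Without the filter, 1 was called for graft against no repair in running rats at 28 DPI. Leaving out 1 muscle at a time, contralateral against control ranged from 0 to 3 at 3 DPI and from 0 to 2 at 7 DPI, the last step from 0 to 2 without repair and from 1 to 4 with a graft, graft against no repair in running rats at 28 DPI from 0 to 2, and running against not running with a graft at 28 DPI from 0 to 1. The last 2 upper values set 1 muscle, at 85.83 TPM of Mmp9, against a group, with the spread taken from the other groups. The cause of these changes was not tested. Among results of single members, the pseudocount gained 32 calls and lost 0, size factors gained 3 and lost 9, all libraries gained 1 and lost 9, the compared groups alone gained 5 and lost 9, and 59 fits without 1 muscle gained 21 and lost 26. Using the rat as a block for pairing changed no call. Fits within each run of rat numbers were added after the data were seen. In later rats alone the step from 7 to 14 DPI gave 2 calls without repair and 3 with a graft, against 6 and 7 over all rats, where 2.79% and 8.93% of genes were called against 6.82% and 10.8%. The depth of each library is not kept in TPM, so a member at 0 TPM is only listed at 0.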

Other observations

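In the 8 running libraries at 28 DPI put in no group, title and label make the same split with opposite names. Mmp2 was higher in those labelled VML, which is the reverse of the titles. In the 4 titled contralateral but labelled VML, Mmp2 ran from 102.05 to 195.85 TPM. In the 4 titled injured but labelled as without VML, it ran from 15.53 to 19.34 TPM. Their groups were left unassigned, and these values were used for no mapping.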
